A study of Mus musculus with 6 samples.

Results

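Oligodendrocyte precursor cells were sought in single-cell RNA data of mouse brain by a marker rule, and 139 of 94144 kept cells met it (0.148%). A cell was kept if it had 500 or more UMIs (counted RNA molecules), 300 or more genes, and a mitochondrial share of UMIs no higher than 15%. A selected cell held at least 1 UMI of at least 3 of the genes Pdgfra, Cspg4, Vcan, Olig1, Olig2, Tnr, C1ql1 and Lhfpl3. At least 1 of these had to be Pdgfra, Cspg4 or Vcan. Fewer than 2 of Mog, Col1a1, P2ry12, Cldn5, Kl and Abcc9, which mark mature oligodendrocytes, fibroblasts, microglia, endothelium, choroid plexus and pericytes, could be present. The markers are measured values, so their levels in the selected cells are a description and were not tested.

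The study compared 3 groups of 2 libraries each, made from freshly dissociated brain cells with a droplet 3' kit. These were TRPM2 Mg KO mice with bilirubin, wild-type (WT) mice with bilirubin, and WT mice with vehicle. The labels do not expand "Mg", and name no driver, allele or cell type for the knockout; the sources used here give no age, dose or brain region. A vehicle library of the knockout was not analysed here, so the knockout is described only under bilirubin. Whether each library came from a separate animal is not stated, so the p-values cover the spread among libraries, part or all of which may be technical.

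Oligodendrocyte precursors are the dividing glia of the brain that give rise to the myelinating oligodendrocytes, and many persist in the adult. They respond to platelet-derived growth factor through the receptor encoded by Pdgfra and carry the proteoglycan NG2 encoded by Cspg4. They also bear glutamate and GABA receptors and receive synaptic input from neurons. On commitment they lower these genes, pass through a stage marked by Gpr17, Bmp4 and Enpp6, and then switch on myelin genes such as Mbp and Mag. Bilirubin is the end product of haem breakdown, and Trpm2 encodes a calcium-permeable cation channel that opens under oxidative stress.

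The knockout bilirubin libraries gave 16274 and 4134 kept cells, WT bilirubin 20834 and 8593, and WT vehicle 20003 and 24306. The selected cells had a median of 2143 UMIs, against 1542 UMIs in all kept cells, and each library's selected cells together held 15132 to 124930 UMIs. Their median share of mitochondrial UMIs was 3.34% and 3.24% in the knockout, 5.98% and 0.735% in WT bilirubin, and 0.726% and 0.781% in vehicle. The same split between libraries was present in all kept cells, at 5.67% and 3.81%, 7.21% and 0.657%, and 1.07% and 0.854% in the same order. Pairs of libraries shared 12 to 141 barcodes among kept cells. No barcode of a selected cell was selected in a second library, and 3 were kept in another library. Scrublet, a doublet caller, marked 29 of the 139 cells. Trpm2 itself had 2 and 0 UMIs in the selected cells of the knockout libraries, 0 and 0 in WT bilirubin and 0 and 2 in WT vehicle. These counts are too low to compare, and since the labels do not say which exons are deleted, 3' reads may not test the knockout at all.

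The markers were thinly counted. Of the 139 cells, 107 (77%) held exactly 3 of the 8 markers, 20 held 4 and 12 held 5 to 7. Just outside the rule, 497 kept cells held exactly 2 markers with at least 1 of Pdgfra, Cspg4 and Vcan. Tnr, which encodes the matrix protein tenascin-R, was present in 110 selected cells, and Lhfpl3, a tetraspan membrane protein gene, in 102. Pdgfra was present in 78 cells and 60 of these held a single UMI. Vcan, the gene of the proteoglycan versican, was present in 54 cells and Cspg4 in 49. Olig1 and Olig2, transcription factor genes of the whole lineage, were present in 45 and 21 cells, and C1ql1, a secreted C1q-like protein gene, in 7. Among all kept cells 6.97% had a Tnr UMI, 4.12% an Olig1 UMI and 3.20% a Pdgfra UMI.

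Precursor genes that the rule did not use set the selected cells apart in level. A list of 28 such genes had 4200 CPM (UMIs per 1000000 UMIs of the same cells), against 1034 CPM in all kept cells, a ratio of 4.06. In 1061 mature oligodendrocytes the list stood at 1222 CPM and in 5810 astrocytes at 1868 CPM, these cells being picked by their own marker genes. Of the 28 genes, 26 were above the kept-cell level and 22 were at least 2-fold above it. The 28-gene list was above the kept-cell level in 6 of 6 libraries. In the 497 cells just outside the rule it was 1184 CPM.

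The largest ratios to all kept cells, among genes with at least 20 UMIs in the selected cells, were headed by genes of that list. Megf11, a receptor with EGF-like repeats, had 103 CPM against 4.21 CPM in kept cells. Matn4, a matrilin of the matrix, had 115 CPM against 8.77 CPM, and Nxph1, which encodes a secreted synaptic protein, had 250 CPM against 19.3 CPM. Cacng4, an auxiliary subunit gene of AMPA receptors, had 73.5 CPM against 7.03 CPM, and Xylt1, which starts the sugar chains of proteoglycans, had 250 CPM against 23.9 CPM. Pcdh15, a protocadherin gene, had 353 CPM against 38.7 CPM, and Sox6, a transcription factor gene that holds precursors undifferentiated, had 140 CPM against 19.5 CPM. Fabp7, Scrg1 and Rlbp1, which astrocytes and radial glia also use, had ratios of 1.03, 1.25 and 0.453.

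Sox10, the transcription factor gene shared by all stages of the oligodendrocyte lineage, was present in 24 of 139 selected cells, or 17.3% (exact binomial 95% interval 11.4% to 24.6%). In astrocytes, which should lack it, 1.1% of cells had a Sox10 UMI at a median of 1859 UMIs, and in mature oligodendrocytes 49.3% had one at a median of 2941 UMIs. The share was 12.1% of the cells with 3 markers, 20% of those with 4, and 58.3% of those with 5 to 7 (27.7% to 84.8%). In the cells just outside the rule it was 1.81%.

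The 12 cells with 5 or more markers had the highest level of the precursor genes. The 28-gene list reached 11562 CPM in these 12 cells, against 3614 CPM at 4 markers and 3538 CPM at 3. They held a median of 12 of the 28 genes, against 5 at 4 markers and 6 at 3. After thinning each cell to 1000 UMIs, which left out 7 shallower cells, the mean number of list genes was 8.05 at 5 or more markers, 3.19 at 4 and 3.3 at 3. The same 12 cells also had the highest sum of 9 microglial markers, 10779 CPM, against 3494 CPM at 4 markers, 4123 CPM at 3 and 6070 CPM in all kept cells. C1qa, 1 of these markers, had 57 UMIs in 1 of the 12 cells, which Scrublet marked, and 0 to 9 in the rest. The part of the microglial markers in the list's level was not tested. The mean number of list genes was 1.43 just outside the rule and 1.16 in all kept cells. The plot of the list by markers held shows the spread within each class.

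**Figure D1:**
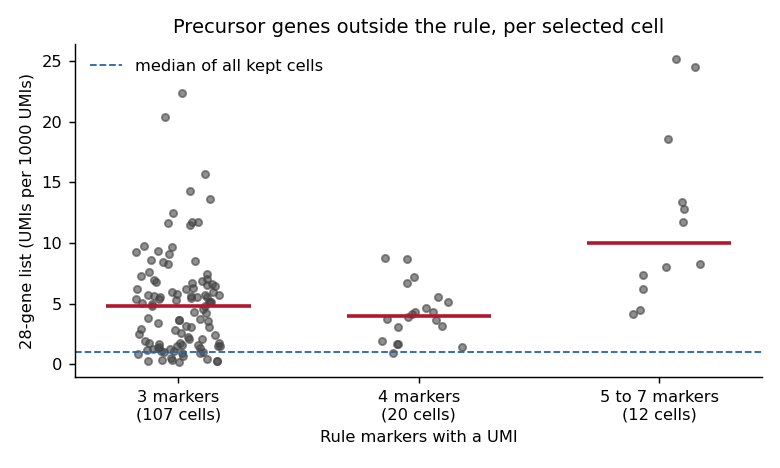
Each point is 1 selected cell; the y axis is the summed level of the 28 precursor genes outside the rule, in UMIs per 1000 UMIs of the cell, and the x axis is the number of rule markers with a UMI. Red lines are medians, 4.84 at 3 markers, 4.02 at 4 and 9.99 at 5 to 7, and the dashed line is the median of all kept cells, 0.977; cells with 3 markers reach down to and below that line.

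The data bore the label out only in part, and the cells are called selected cells here. When clustered among themselves they formed 5 clusters, of 39, 37, 35, 21 and 7 cells, and none had 1 of the label's markers Pdgfra, Cspg4, Vcan, Olig1 and Tnr among its 10 leading genes. The largest was led by Gpc5, P2ry12, Rorb, Sox6 and Ptprz1, a mix of glial, precursor and microglial genes, and held 9 of the 12 cells with 5 or more markers. The others were led by Mgp, Igkc and Cd74, by the neuronal genes Cntnap2, Meg3 and Snhg11, by haemoglobin genes, and, in 7 cells, by the myelin genes Mal and Mag. In the cluster led by Mgp, 1 cell of knockout replicate 1 held 36 UMIs of Igkc and 52 of Cd74. The other cells of that cluster held at most 2 of Igkc and 7 of Cd74. Microglial markers summed to 4587 CPM in the selected cells and 6070 CPM in all kept cells, and choroid plexus markers to 50319 and 77428 CPM. Neuronal markers came to 4822 CPM in the selected cells and 4917 CPM in all kept cells. Most of both sums came from 1 of these markers, the non-coding RNA Bc1. Neutrophil markers came to 73.5 CPM in the selected cells and 1102 CPM in all kept cells. Of the 139 cells, 71 held 1 of the excluding markers, and what part cells of other types have in the levels was not tested.

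Genes for neurotransmitter receptors and ion channels had the next highest ratio to all kept cells after the precursor genes, 2.98 against 4.06, among the lists of gene functions. All 24 genes of this list were above their kept-cell level, and the sum was 2912 CPM against 979 CPM, higher in 6 of 6 libraries. Grik1, a kainate receptor subunit, led it with 88.2 CPM against 10.5 CPM. Receptors for growth factors and differentiation signals came to 1952 CPM in the selected cells, 1215 CPM in kept cells and 1871 CPM in mature oligodendrocytes. Proteoglycan and matrix genes reached 3272 CPM in the selected cells, 2093 CPM in kept cells and 3671 CPM in astrocytes, so their level did not set the selected cells above astrocytes. Committed precursor genes stood at 1112 CPM, against 481 CPM in kept cells and 1224 CPM in mature oligodendrocytes. Myelin genes stood at 4080 CPM, against 1887 CPM in kept cells and 28931 CPM in mature oligodendrocytes.

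Cell cycle genes, antigen presentation and interferon genes, and acute phase and cytokine genes were below the kept-cell level in sum, at ratios of 0.721, 0.812 and 0.781, each in 5 of 6 libraries. Ccl4, a chemokine gene of microglia and other immune cells, had 132 CPM in the selected cells against 516 CPM in kept cells, and H2-K1, a class I antigen presentation gene, had 63.7 CPM against 135 CPM.

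The selected cells made up 0.227% and 0.121% of kept cells in the knockout with bilirubin, 0.115% and 0.186% in WT bilirubin, and 0.0950% and 0.156% in WT vehicle. The libraries of all 3 groups overlapped. The means were 0.174% ± 0.0752 in the knockout, 0.151% ± 0.0502 in WT bilirubin and 0.126% ± 0.0434 in WT vehicle (SD, n = 2 each). Each of the 3 pairs of groups gave p = 0.667 in a two-sided exact permutation test over libraries, which cannot go below 0.333 with 2 against 2. In knockout replicate 2 only 5 cells were selected, with an exact binomial 95% interval of 0.0393% to 0.282%. There the excluding markers took out 32 of the 37 cells that met the positive part of the rule, and these 32 cells had a median of 25626 UMIs. In the other libraries they took out 1 to 10. Shares depend on depth: after thinning they were 0.053% ± 0.0516 in the knockout, 0.0579% ± 0.0233 in WT bilirubin and 0.0487% ± 0.00318 in WT vehicle.

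**Figure D2:**
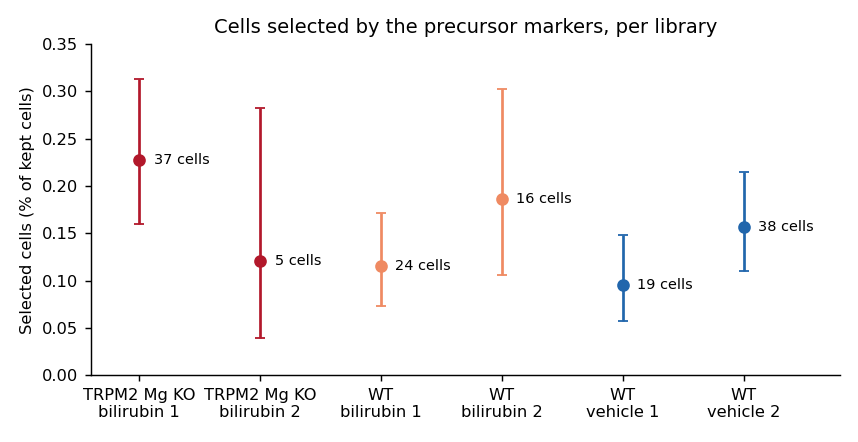
Selected cells as a percentage of kept cells in each library, with exact binomial 95% intervals, which cover counting error only. The 5 to 38 cells per library give intervals that overlap between the groups.

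Only 1 selected cell held at least 2 of 9 cell cycle genes. This was met by 0 of 37 and 0 of 5 cells in the knockout, 0 of 24 and 0 of 16 in WT bilirubin, and 0 of 19 and 1 of 38 in WT vehicle. The exact binomial 95% upper limit is 9.49% for 0 of 37 and 52.2% for 0 of 5, which limits cells with 2 such genes detected and not dividing cells. Cells holding at least 3 of 8 committed precursor genes, among them Gpr17, Bmp4 and Enpp6, were 4 of 37 and 1 of 5 in the knockout, 0 of 24 and 2 of 16 in WT bilirubin, and 1 of 19 and 2 of 38 in WT vehicle. The knockout shares, 10.8% and 20%, were above the 5.26% of both vehicle libraries (exact permutation p = 0.333, the smallest possible) and overlapped those of WT bilirubin (exact permutation p = 0.667). In all kept cells such shares were 1.45% and 4.04% in the knockout, 0.749% and 0.733% in WT bilirubin, and 0.280% and 0.362% in WT vehicle, so the knockout also stood above vehicle there. After thinning the order of the knockout and vehicle means turned round, to 0.917% ± 0.118 in the knockout and 2.19% ± 2.11 in vehicle.

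With bilirubin, the 28 precursor genes outside the rule were higher in sum in the selected cells of WT mice than with vehicle. The sum was 4332 and 7630 CPM in the WT bilirubin libraries, against 3396 and 2189 CPM in the WT vehicle libraries, with means of 5981 ± 2332 and 2792 ± 853 CPM (SD, n = 2 each). The libraries did not overlap. In all kept cells the list ran the other way, with 859 and 850 CPM in WT bilirubin and 1554 and 1114 CPM in WT vehicle. The knockout bilirubin libraries had 5363 and 3701 CPM in the selected cells, a mean of 4532 ± 1175 CPM. These sums overlapped WT bilirubin and stood above both vehicle libraries. The medians per cell, in the units of the plot by markers held, were 4.55 and 7.21 in WT bilirubin. They were 3.12 and 3.65 in WT vehicle, and 5.61 and 2.09 in the knockout. By this measure WT bilirubin stayed above vehicle, but knockout replicate 2, with 5 cells, fell below both vehicle libraries. Cells with 5 or more markers were unevenly spread, 6 and 0 in the knockout, 3 and 2 in WT bilirubin and 1 and 0 in vehicle. Without them the sums were 4644 and 3701 CPM in the knockout, 3933 and 4797 CPM in WT bilirubin, and 3158 and 2189 CPM in vehicle. The sums of the groups thus lay in the same positions to each other.

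**Figure D3:**
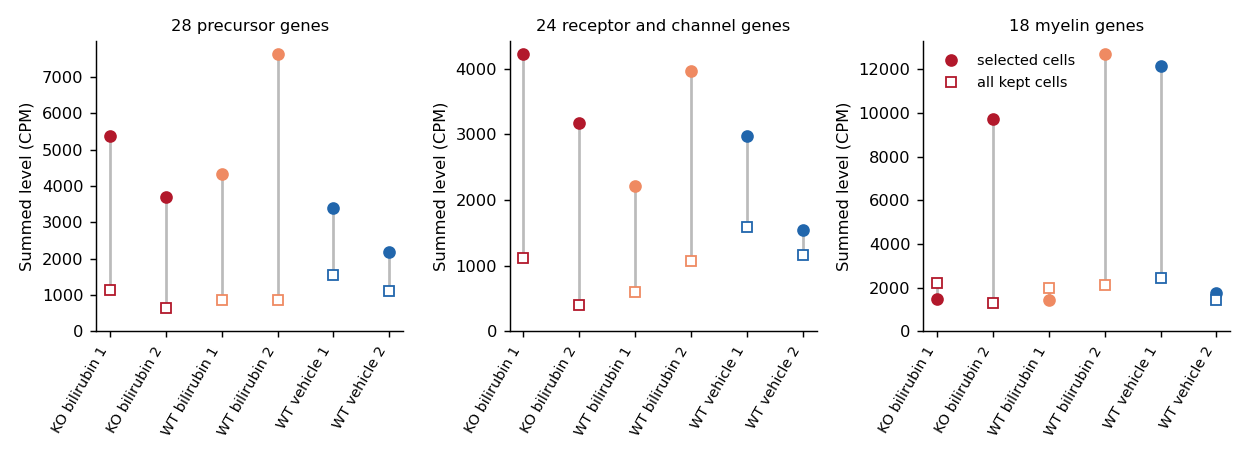
Summed CPM of 3 gene lists in the selected cells (filled circles) and in all kept cells (open squares) of each library; KO is TRPM2 Mg KO. The precursor genes are above the kept cells in all 6 libraries. Within the selected cells, the sums of the 4 bilirubin libraries (3701 to 7630 CPM) exceed those of vehicle (2189 and 3396 CPM). By the median per cell, which is not drawn, knockout replicate 2 lies below both vehicle libraries. The myelin genes vary from 1433 to 12708 CPM with no order by group.

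Gene by gene, no change in the selected cells passed the test between groups. Before testing, libraries with fewer than 20 selected cells were to be left out, which would have left 1 library a group and no test, so the test given here uses all 6 libraries, a choice made after the data were seen. EdgeR's quasi-likelihood test on summed counts called 0 of 1115 genes (0%) in WT bilirubin against WT vehicle, with a smallest adjusted p of 0.959, and 45 genes at an unadjusted p under 0.05, 38 higher (3.41%) and 7 lower (0.628%). DESeq2 called 0, with 31 at an unadjusted p under 0.05. In the knockout with bilirubin against WT bilirubin edgeR called 0 genes (0%), with a smallest adjusted p of 0.999 and 10 genes at an unadjusted p under 0.05, 5 higher (0.448%) and 5 lower (0.448%), and DESeq2 called 0 with 6. In the knockout with bilirubin against WT vehicle edgeR called 0 (0%), with a smallest adjusted p of 0.989 and 37 at an unadjusted p under 0.05, 36 higher (3.23%) and 1 lower (0.0897%), and DESeq2 called 0 with 20. On simulated counts of the same size, edgeR found 31.3%, 19.3% and 34.6% of 4-fold changes and 82.4%, 78.1% and 90.5% of 8-fold changes in these 3 comparisons, so changes below 4-fold would mostly be missed. The simulation gave every gene the same spread between libraries, a little below the common spread fitted to the data. The real rates may therefore be lower.

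Within the precursor list, 27 of the 28 genes had a UMI in the selected cells, and 15 of them were higher in both WT bilirubin libraries than in both vehicle libraries, with 1 lower. Over all 15505 genes with a UMI, 13.1% were higher and 9% lower without overlap. All 13 genes of the list that passed the filter on low counts had log2 fold changes above 0, with a median of 1.63 against 0.07 over all tested genes, and 10 of them were higher without overlap, against 16.1% of tested genes higher and 13.4% lower. A gene could pass that filter through the group in which it was high, so this is a description, and none was called. Brinp3, which encodes a neural protein, had 191 and 303 CPM in WT bilirubin and 69.8 and 65.1 CPM in WT vehicle, for 1.98 on the log2 scale (SE 0.72, edgeR adjusted p = 0.959). Ptprz1, the receptor phosphatase gene of glial progenitors, had 478 and 1314 CPM in WT bilirubin and 302 and 228 CPM in WT vehicle, for 1.9 (SE 0.76, edgeR adjusted p = 0.959). These rest on few molecules, 12 and 12 UMIs of Brinp3 in WT bilirubin and 3 and 8 in WT vehicle.

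In the knockout with bilirubin against WT vehicle, 9 of the 27 genes were higher without overlap and 0 lower, against 9.7% and 10.1% of all genes with a UMI. In the knockout with bilirubin against WT bilirubin, 3 were higher and 5 lower, against 8.46% and 9.32%. Among the 13 tested genes, 3 were higher and 4 lower than in WT bilirubin, against 9.33% and 10.6% of tested genes, and 7 were higher than in WT vehicle, against 17%, with 0 lower, against 13.3%. The comparisons share libraries and are not independent of each other. Matn4 had 56.0 and 66.1 CPM in the knockout and 207 and 379 CPM in WT bilirubin, for a log2 fold change of -2.33 (SE 0.96, edgeR adjusted p = 0.999). Nxph1 had 384 and 595 CPM in the knockout and 140 and 89.5 CPM in WT vehicle, for 2.12 (SE 0.72, edgeR adjusted p = 0.989). Olig1, 1 of the rule's own markers and so only described, had 96.1 and 66.1 CPM in the knockout, 159 and 531 CPM in WT bilirubin, and 256 and 114 CPM in WT vehicle.

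Long genes ran in the same direction as the precursor list. When the 1071 tested protein-coding genes with a RefSeq length were split into 5 equal classes by gene length, the median log2 fold change of WT bilirubin against WT vehicle was -0.26 in the shortest class and 0.82 in the longest, and 191 of the 214 longest genes were above 0. For the knockout with bilirubin against WT vehicle these medians were -0.34 and 0.82, with 201 of 214 above 0, and against WT bilirubin they were -0.10 and 0.04. The 13 tested precursor genes had a median length of 286650 bases, and 7 were in the longest class. Within that class, their median was 1.58 in WT bilirubin against WT vehicle and that of the other 207 genes 0.81. Levels relative to kept cells differed too. Of 3704 genes with at least 20 UMIs and a length, the longest class had a summed level of 2.73 and 3.17 times the kept cells in the knockout, 2.25 and 2.76 times in WT bilirubin, and 1.49 and 1.29 times in WT vehicle. The part of gene length in the list's level was not tested.

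**Figure D4:**
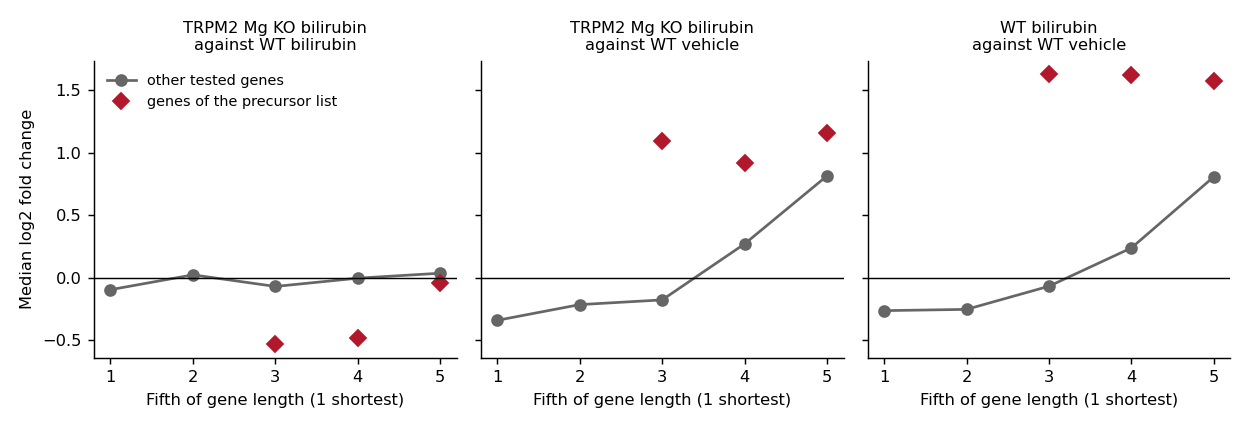
Median log2 fold change in the selected cells by class of gene length, for the tested precursor genes (red diamonds) and the other tested protein-coding genes (grey). Against vehicle the grey medians climb from the shortest to the longest class, from -0.34 to 0.82 in the knockout and from -0.26 to 0.81 in WT bilirubin. In both, the diamonds lie above the grey line in each class that holds precursor genes. Against WT bilirubin the knockout's grey medians stay near 0.

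Among the other genes with the smallest p in WT bilirubin against WT vehicle were receptors and synaptic genes. Erbb4, a neuregulin receptor, had 255 and 531 CPM in WT bilirubin and 93.0 and 97.6 CPM in WT vehicle, for a log2 fold change of 2.14 (SE 0.66). Gria4, an AMPA receptor subunit that precursors carry, had 159 and 429 CPM in WT bilirubin and 69.8 and 65.1 CPM in WT vehicle, for 2.22 (SE 0.75). Adarb2, Ptprt, Syne1, Dlgap1 and Gpc5 were also higher in both bilirubin libraries, with log2 fold changes of 1.57 to 2.3. Bc1, a neuronal non-coding RNA, was lower, with 1656 and 1339 CPM in WT bilirubin and 12258 and 3084 CPM in WT vehicle, for -2.23 (SE 0.77). In all kept cells Bc1 had 1240 and 1118 CPM in WT bilirubin and 18036 and 3795 CPM in WT vehicle, lower in both bilirubin libraries there as well. None was called, at an edgeR adjusted p of 0.959.

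Endothelial genes stood among the same smallest p-values. Itm2a had 414 and 101 CPM in WT bilirubin and 23.3 and 24.4 CPM in WT vehicle. Ly6c1 had 478 and 50.5 CPM in WT bilirubin and 0 and 40.7 CPM in WT vehicle. Ly6a had 526 and 101 CPM in WT bilirubin and 23.3 and 48.8 CPM in WT vehicle. The 8 endothelial markers summed to 1537 and 198 CPM in the knockout, 1608 and 606 CPM in WT bilirubin, and 302 and 260 CPM in WT vehicle, and in all kept cells to 2024 and 2096, 1372 and 337, and 650 and 410 CPM in the same order. Their part in the results was not tested. The 12 mitochondrially encoded genes tested had a median log2 fold change of 2.48 in WT bilirubin against WT vehicle, and 10 had an unadjusted edgeR p under 0.05. In the knockout with bilirubin against WT vehicle their median was 1.98, and 11 had an unadjusted edgeR p under 0.05. These genes are among the 45 and 37 counted above at that level. Between the knockout and WT bilirubin their median was -0.19, with 0 at that level. Without WT bilirubin replicate 2, edgeR called 15 genes, 9 of them mitochondrially encoded, with Itm2a, Ly6a, Ly6c1 and Bsg higher and the myelin gene Mal lower. Without WT bilirubin replicate 1 it called 3 haemoglobin genes, all lower.

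In the knockout with bilirubin against WT bilirubin, the smallest p-values belonged to Galntl6, Egr1 and S100a6. Galntl6, a glycosyltransferase family gene, had 232 and 463 CPM in the knockout and 31.9 and 25.3 CPM in WT bilirubin, for 3.3 on the log2 scale (SE 0.99). Egr1, an immediate-early transcription factor gene that tissue dissociation also induces, had 56.0 and 0 CPM in the knockout and 398 and 126 CPM in WT bilirubin, for -2.57 (SE 0.98). S100a6, a calcium-binding protein gene, had 80.0 and 66.1 CPM in the knockout and 462 and 152 CPM in WT bilirubin, for -2.05 (SE 0.8). The edgeR adjusted p of all 3 was 0.999. Bcas1, a gene of newly committed oligodendrocytes, had 248 and 264 CPM in the knockout and 79.6 and 50.5 CPM in WT bilirubin, for 1.83 (SE 0.94, edgeR adjusted p = 0.999).

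Against WT vehicle, Tenm2, a teneurin adhesion gene, had 728 and 529 CPM in the knockout and 209 and 171 CPM in WT vehicle, for 1.85 (SE 0.55). Gria4 had 344 and 264 CPM in the knockout, for 2.29 (SE 0.75) against the vehicle values given above, and Erbb4 288 and 463 CPM, for 1.92 (SE 0.67). Grm5, the gene of a metabotropic glutamate receptor, had 568 and 529 CPM in the knockout and 279 and 147 CPM in WT vehicle, for 1.49 (SE 0.61). The edgeR adjusted p of these 4 genes was 0.989. Of the 24 receptor and channel genes, 10 were higher and 2 lower without overlap in the knockout than in WT vehicle, and 7 higher and 3 lower in WT bilirubin than in WT vehicle, against the shares of all genes given above. The list's sum overlapped between all pairs of groups but knockout and vehicle, at 4226 and 3172 CPM in the knockout, 2214 and 3966 CPM in WT bilirubin, and 2977 and 1538 CPM in WT vehicle.

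Myelin genes differed between libraries and not by group, with 1489 and 9714 CPM in the knockout, 1433 and 12708 CPM in WT bilirubin, and 12141 and 1774 CPM in WT vehicle. Acute phase genes had few UMIs. Lcn2 had 1 and 1 UMIs in the knockout, 1 and 3 in WT bilirubin and 0 and 0 in vehicle, and Lrg1 had 1 and 0, 0 and 3, and 0 and 0. S100a8, a neutrophil gene, had 2 and 0 UMIs in the knockout, 4 and 6 in WT bilirubin and 0 and 0 in vehicle. Of the iron, haem and NRF2 genes, the metallothionein genes Mt1 and Mt2 had the smallest p in all 3 comparisons, and 0 of the 6 tested genes were called by edgeR in any, with 0 of 6 at an unadjusted p under 0.05.

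The bilirubin response of the selected cells was set against that of mature oligodendrocytes of the same libraries in 1 edgeR fit with the library as a block. Of 4027 genes, 9 (0.223%) were called as differing in their response between the cell types. Of these, 1 is the rule marker Tnr, whose values chose the cells, so its row is no test. The other 8 were relatively higher with bilirubin in the selected cells. Those described here are Ptprt, Ptprz1, Lrrtm4, Dlgap1, Sgcz, Csmd1 and Gria1, with differences of 2.34 to 4.15 on the log2 scale and edgeR adjusted p-values of 0.0141 to 0.0395. Lrrtm4, Dlgap1 and Gria1 encode synaptic adhesion, scaffold and receptor proteins, and Ptprz1 and Ptprt receptor phosphatases. Gria1 was also among the 10 leading genes of the cluster led by the neuronal genes Cntnap2, Meg3 and Snhg11. What part that cluster or gene length has in these differences was not tested.

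For Ptprz1 the selected cells had 478 and 1314 CPM in WT bilirubin and 302 and 228 CPM in WT vehicle, while mature oligodendrocytes had 48.9 and 31.5 CPM in WT bilirubin and 132 and 105 CPM in WT vehicle. The difference of the responses was 3.1 (SE 0.62, edgeR adjusted p = 0.0141). For Dlgap1, a postsynaptic scaffold gene, the selected cells had 430 and 935 CPM in WT bilirubin and 209 and 285 CPM in WT vehicle, and mature oligodendrocytes 60.5 and 48.8 CPM in WT bilirubin and 158 and 177 CPM in WT vehicle, a difference of 2.9 (SE 0.60, edgeR adjusted p = 0.0141). In all kept cells Dlgap1 had 102 and 175 CPM in WT bilirubin and 267 and 198 CPM in WT vehicle. In neither cell type alone were these genes called, except Gria1, which fell in mature oligodendrocytes by 2.5 on the log2 scale (SE 0.41, edgeR adjusted p = 0.0172). Alone, mature oligodendrocytes had 18 of 8630 genes called (0.209%) in WT bilirubin against WT vehicle and 5 (0.0579%) in the knockout with bilirubin against WT bilirubin.

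**Figure D5:**
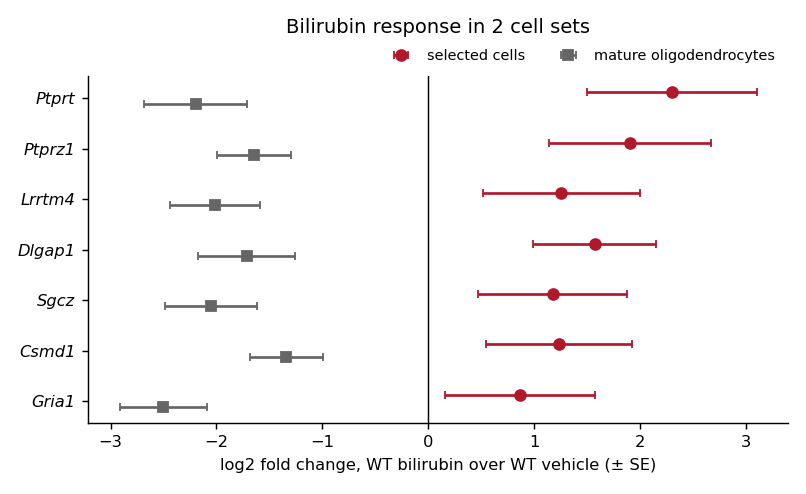
Log2 fold changes of WT bilirubin over WT vehicle (± SE from edgeR, n = 2 libraries a group) of 7 genes whose response differed between the selected cells (red circles) and mature oligodendrocytes (grey squares). All 7 red circles are above 0 and all 7 grey squares below it.

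The count of 9, Tnr included, rests on few libraries. It was 0 without WT vehicle replicate 2, 3 without WT bilirubin replicate 2 (Hbb-bt and Tubb4a among them, and none of the 9), 16 without WT bilirubin replicate 1 and 0 among cells with at least 4 markers. The same fit for the knockout with bilirubin against WT bilirubin called 0 of 4027 genes (0%) with edgeR, the smallest adjusted p being 0.9996 and 115 genes having an unadjusted p under 0.05; DESeq2 was not run on this fit. The smallest p-values there belonged to Btg1, Safb, Dpp10, Tafa1 and Enpp2.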

How the data were processed

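Per library, the authors deposited a matrix of UMI counts, whole numbers with no normalization, and barcode and gene tables, an other kind of deposited content that holds names only. The 33696 genes are identical across the 6 libraries. Cell Ranger 8.0.0 and Scanpy 1.9.6 appear in the submitters' processing notes, whereas Cell Ranger 9.0.1 stands in the matrix headers; the builds named have no role given, so no coordinates are printed. Each library had 4137 to 24309 barcodes with 24165563 to 63402551 UMIs in all.

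Cells were chosen as described above. Mature oligodendrocytes and astrocytes were picked by marker counts of the same kind. Scrublet in scanpy 1.11.5 marked 10833 doublets, which stayed in; where its automatic threshold called under 0.5% or over 2 times the expected rate, the expected share was marked, a choice made after seeing the data. The members and gene lists were chosen with earlier results of these data known.

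UMIs of the selected cells were summed per library and tested in R 4.3.3 with edgeR 4.0.16, by its two-sided quasi-likelihood test (TMM, filterByExpr, 6 libraries in 1 fit, 3 residual degrees of freedom, Benjamini-Hochberg adjustment, threshold 0.05). A minimum of 20 members a library, planned at first, was dropped after the members were counted. DESeq2 1.42.0, other normalization, filters and cell rules were alternatives. CPM are not scaled by TMM. Intervals and floors of 3 counts cover counting error only. The test was checked on simulated data.

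Named genes were those with the smallest p among genes with a mean of at least 5 CPM (16 a comparison), the 2 smallest of each list, the rule markers, Trpm2, Cebpb, Lcn2, Lrg1, Scgb3a1, S100a8 and S100a9, and the 5 smallest of each response difference. Predicted, ribosomal, mitochondrial and haemoglobin genes were counted but not named by size. Genes named for their level against kept cells, and those of single alternatives, were chosen after their values were seen. A few genes that these rules reached are not reported here. Gene lengths come from RefSeq's GRCm38.p6 table, matched by symbol for 96.1% of the tested genes. Replicates of a group differed by more than sampling noise, with a chi-square per degree of freedom of 2.45 to 6.48.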

Additional observations from a re-analysis of the deposited data

Results flagged for a closer look

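In all, 7 genes were flagged because their bilirubin response in WT mice differed between the selected cells and mature oligodendrocytes in a test of the difference itself (edgeR, 6 libraries, adjusted p of 0.0141 to 0.0395). The differences, selected cells minus mature oligodendrocytes on the log2 scale, were 4.15 for Ptprt, 3.1 for Ptprz1, 3.05 for Lrrtm4 and 2.9 for Dlgap1. They were 2.88 for Sgcz, 2.34 for Csmd1 and 3.09 for Gria1. For Gria1 the libraries of the selected cells overlapped, with 239 and 101 CPM in WT bilirubin and 116 and 97.6 CPM in WT vehicle. The log2 fold change there was 0.86 (SE 0.71), against -2.5 (SE 0.41) in mature oligodendrocytes. In all kept cells of WT bilirubin replicate 1 each of these 7 genes was lower than in both vehicle libraries; Ptprt, for example, had 25.6 and 47.4 CPM in WT bilirubin and 68 and 51.5 CPM in WT vehicle. What this has to do with the difference was not tested.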

How the results depend on the processing

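The counts of 0 called genes stayed at 0 with median-of-ratios size factors, DESeq2, no filter, only the 4 libraries compared, the stricter cell filter and Scrublet calls removed. They also stayed at 0 in cells of at least 4 markers or 2 of Pdgfra, Cspg4 and Vcan, and with cells with markers of other classes left out. The same held with thinning, only genes above the kept-cell level, and without the excluding markers. Keeping only the 72 cells of the clusters led by Mgp and by Cntnap2 also gave 0. These clusters had no listed marker of another class among their 10 leading genes, though the second was led by neuronal genes. That choice left out the cluster with 9 of the 12 cells of 5 or more markers. Leaving out 1 library gave 0 to 15 calls in WT bilirubin against WT vehicle, 0 to 5 in the knockout with bilirubin against WT vehicle (4 and 5 without the first and the second WT bilirubin replicate, and 2 without knockout replicate 2, nearly all mitochondrially encoded), and 0 in the knockout with bilirubin against WT bilirubin. The 9 response differences were 11 with median-of-ratios size factors, 3 with no filter, 20 with Scrublet calls removed, 0 with at least 4 markers and 0 to 16 without 1 library, and those of the knockout with bilirubin against WT bilirubin 0 to 3 (3 without WT bilirubin replicate 2). The minimum of 20 members left no test, and none is given.

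Whether same-numbered libraries form pairs cannot be told from 2 libraries a group. Such libraries correlated in their deviations at -0.41 (WT bilirubin and vehicle), 0.21 (knockout and vehicle) and 0.03 (knockout and WT bilirubin) over 1115 genes. A replicate block left the count of calls at 0 in all 3 comparisons. With crossed pairing of the WT bilirubin and vehicle libraries, added after seeing the data, 11 genes were called.

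The difference in share of selected cells, in percentage points, ran from -0.0105 to 0.0605 for WT bilirubin minus vehicle without 1 library, from -0.0298 to 0.0767 for the knockout minus WT bilirubin (-0.00495 thinned, -0.000403 with at least 5 markers), and from -0.00471 to 0.102 for the knockout minus vehicle. The committed share turned round on thinning, to -0.523, -0.75 and -1.27 points in the same 3 comparisons, and ran from -5.26 to 7.24 for WT bilirubin minus vehicle without 1 library. The cycling share differed by 0 between WT bilirubin and vehicle, and between the knockout and vehicle, with Scrublet calls removed and with at least 4 markers, and by -2.63 to 0 without 1 library. The 28-gene level of the selected cells was 6783 CPM with at least 4 markers, 6232 CPM with at least 2 of Pdgfra, Cspg4 and Vcan, and 1583 CPM without the excluding markers. For 2 genes the direction turned without knockout replicate 1: Cntnap2 in the knockout against WT bilirubin (-0.64 to 2.30 without 1 library) and Itm2a against vehicle (-3.54 to 3.72). The causes were not tested. Depth limits the gene tests: 1 UMI equals 66.1 CPM in the selected cells of knockout replicate 2.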

Other observations

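The gene groups not yet described lay at 0.734 to 1.43 times their level in all kept cells. Cholesterol synthesis and uptake genes, which myelinating cells need, came to 566 CPM in the selected cells and 532 CPM in all kept cells, with 11 of 20 genes above. Unfolded protein and stress genes came to 1026 CPM against 1162 CPM, immediate-early and dissociation genes to 3093 CPM against 4212 CPM, and glucocorticoid targets to 1019 CPM against 800.02 CPM. Calcium entry and TRP channel genes came to 891 CPM against 624 CPM, above the kept cells in 6 of 6 libraries, of which Trpm2 gave 4 UMIs in all.

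The 64 cells that met the positive part of the rule but held 2 or more excluding markers had a median of 14236 UMIs and 732 CPM of the 28-gene list, below the kept cells, and 9 were marked by Scrublet. The genes with the largest ratios in the selected cells were long: the leading 50 had a median length of 382850 bases, against 33708 bases over 3704 genes, and when they were split into 5 equal classes by length, the summed level of the longest was 2.25 times that of kept cells, against 0.814 times in the shortest.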
